A study of Mus musculus with 16 samples.

Results

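A module of 33 genes of adult neurogenesis was followed in the hippocampus: factors of neural stem cells, factors of neuronal commitment, DNA replication genes, cyclins and mitotic genes, and genes of newborn neurons. The members were chosen by gene symbol, current or older, in the annotation of the array. This rule uses no measured value, but earlier results of these data were known when the members were chosen. Of the 33 members 31 had a probe, with 53 of the 25697 probes and 31 of the 16593 named genes on the array. Mki67, the proliferation antigen of cycling cells, and Sox11, a transcription factor of newborn neurons, had no probe under either name and were not analysed here.

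Hippocampal RNA was measured on 16 single-colour BeadChip arrays in 4 groups of male Swiss-Webster mice, with 4 arrays each: HA mice given desipramine (HA DMI), HA mice given saline (HA saline), LA mice given desipramine (LA DMI) and LA mice given saline (LA saline). HA and LA mice were bred for high and low analgesia after a swim stress, and desipramine (DMI) is a tricyclic antidepressant that blocks the reuptake of noradrenaline. The labels give 21 intraperitoneal injections, a dose of 7.5 mg/kg/day for DMI and an age of 15 weeks, and their text on treatment names desipramine for saline mice too, so groups were taken from the title and treatment of each sample. By the study's methods RNA of 3 mice was pooled for each array, so that p-values measure the spread between pools and the spread between single mice is not seen.

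In the adult hippocampus new granule neurons are made throughout life in the subgranular zone of the dentate gyrus. Radial glia-like stem cells that hold Nes and Sox2 give rise to dividing intermediate progenitors with Eomes and Neurog2, which turn into neuroblasts and immature neurons with Dcx, Stmn1 and the collapsin response mediator proteins of the Dpysl family. Chronic antidepressant treatment is known in rodents for raising the proliferation of these progenitors. The cells are a small part of the whole hippocampus, so their transcripts are diluted in bulk RNA, and in bulk samples fewer cells of a type and less RNA per cell cannot be told apart.

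Detection of a probe required a detection p under 0.05, that is the p of its signal against the negative control probes of that array, and 14583 of the 25697 probes were detected on at least 4 arrays. An array of the HA DMI group detected between 13350 and 13693 probes, one of HA saline between 13252 and 13701, one of LA DMI between 12975 and 13301 and one of LA saline between 12900 and 13886. Values are log2 signals after quantile normalization, without background subtraction, and the lowest signal of a detected probe lay between 6.65 and 6.70 on the 16 arrays. Differences of probes near this floor are therefore understated. Each gene is given at its brightest detected probe, its main probe, and its other probes are given where they bear on a result. Of the granule and pyramidal cell markers on the array, 5 of 7 were detected on all 16 arrays, among them Prox1, the granule cell factor of the dentate gyrus (7.82 to 8.26), while Neurod6 and Tdo2 were detected on 0 arrays.

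Of the 31 members with a probe 19 were detected on at least 4 arrays and 13 on all 16. Among the stem cell factors, Sox2, the transcription factor that keeps neural stem cells multipotent, and Hes1, the repressor downstream of Notch that holds back neuronal differentiation, were detected on all 16 arrays, with signals of 7.59 to 8.02 and of 7.11 to 7.42. Nes, the intermediate filament nestin, was detected on 12 arrays (6.56 to 6.87). Sox1, a relative of Sox2, was detected on 2 arrays and Pax6, a homeobox factor of radial glia, on 0.

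Of the neuronal commitment factors only Neurod1, which drives granule cell maturation, was detected on all 16 arrays (6.70 to 7.18). Neurog2, the proneural factor of intermediate progenitors, was detected on 1 array and Eomes, also called Tbr2 and the defining factor of the same cells, on 0. The 9 replication genes were split: the helicase subunits Mcm4 (8.05 to 8.30), Mcm5 (6.87 to 7.22) and Mcm6 (7.36 to 7.99) and the thymidylate synthase Tyms (6.72 to 6.93) were detected on all 16 arrays. The replication clamp Pcna was detected on 14, Mcm2 on 7, the ribonucleotide reductase subunit Rrm2 on 4, Mcm3 on 2 and Mcm7 on 0. These counts are of main probes. The other Mcm4 probes were detected on 0 and 2 arrays, the other Tyms probes on 1 to 7, and 1 of the other Mcm6 probes on 0.

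The D-type cyclins Ccnd1 (8.65 to 9.24) and Ccnd2 (7.78 to 8.47), which carry growth signals into the cell cycle, were detected on all 16 arrays. The genes of the later cycle were near or under the floor: the mitotic kinase Cdk1, the topoisomerase Top2a and the spindle checkpoint kinase Bub1 were detected on 0 arrays at their main probes and Birc5, the chromosomal passenger protein survivin, on 3. No change of these mitotic genes could therefore be measured at this sensitivity. Among the newborn neuron genes, Dcx, the microtubule-associated protein doublecortin that marks neuroblasts (6.99 to 7.31), Stmn1, the microtubule-destabilizing stathmin (8.21 to 9.17), Dpysl5 (6.89 to 7.17) and Ncam1, the adhesion molecule whose polysialylated form is carried by immature neurons (8.91 to 9.44), were detected on all 16 arrays. Dpysl3 was detected on 15, Sox4, a factor that opens the neuronal programme, on 7, and Igfbpl1 and the neuronal tubulin Tubb3 on 1 each. Non-detection at a probe need not mean that the transcript is absent: another Dcx probe was detected on 0 arrays.

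**Figure D1:**
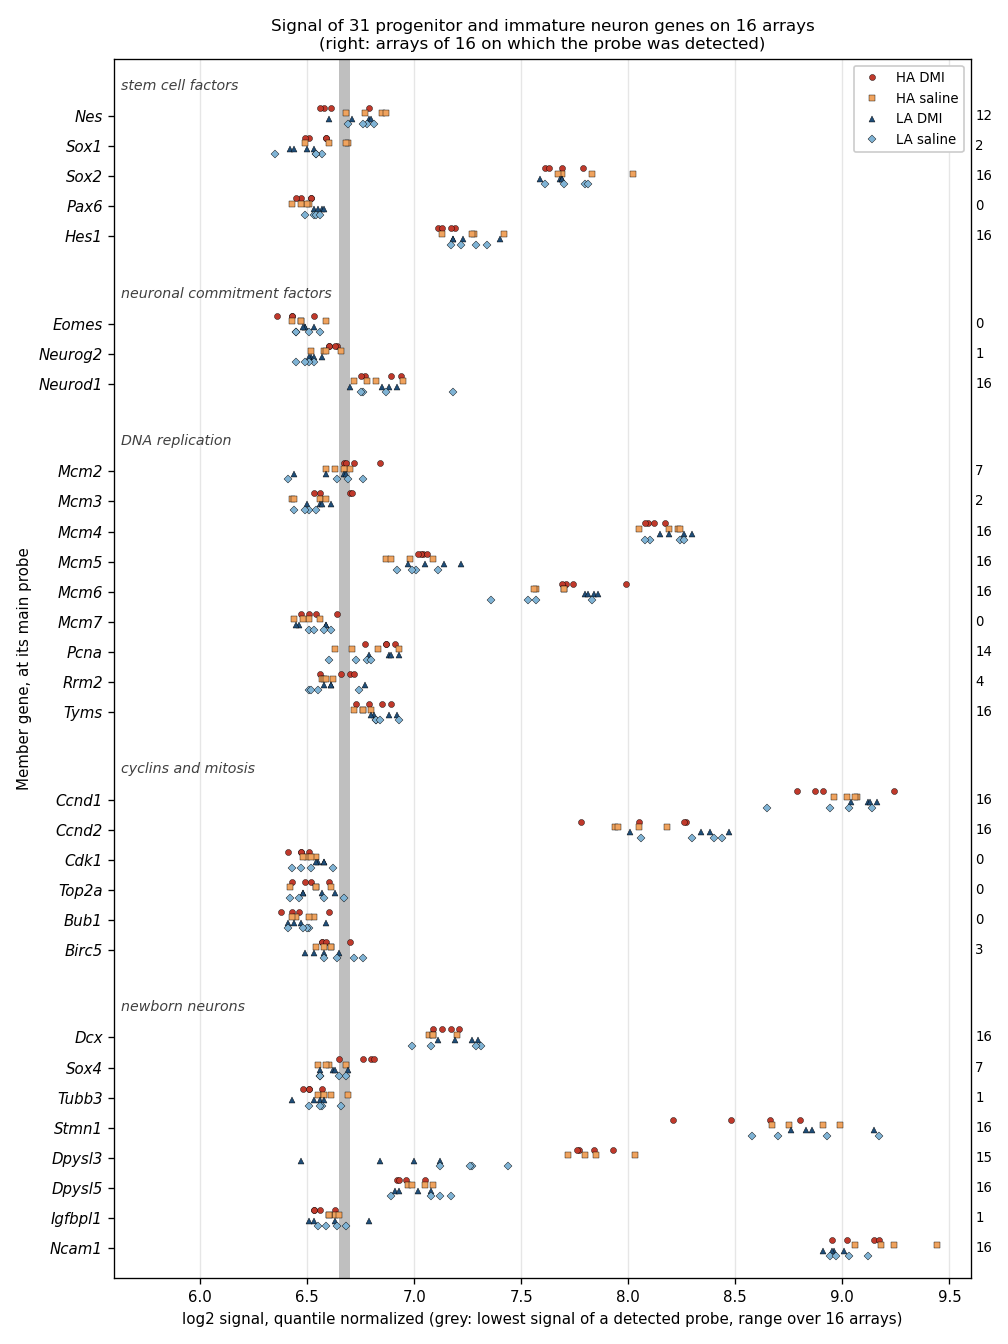
Log2 signal of the 31 members at their main probes on each of the 16 arrays, by role, with 4 symbols for the groups and, at the right, the number of arrays of 16 with detection. The grey band, 6.65 to 6.70, is the lowest signal of a detected probe, and the levels of different probes are not comparable: Cdk1, Top2a and Bub1 were detected on 0 arrays at these probes, and the HA symbols of Dpysl3 stand to the right of its LA symbols.

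Promoters of replication and of mitotic genes are textbook examples of cell cycle control: E2F factors act on replication genes, and the CHR element with CCAAT boxes on genes of mitosis. The stretches before the start are shown for a pair of replication genes whose main probes were detected on every array, Mcm5 and Mcm6. Beside them stands a pair of mitotic genes whose main probes were detected on none, Cdk1 and Top2a. All of them hold matches to the element of their kind, which not every member of these roles does, so they are examples only. They are RefSeq sequences on GRCm38.p6, 5′ to 3′ on the strand of the gene, ending at the base before the start recorded with each promoter. The annotated genes begin at chr8:75109468 for Mcm5 and at chr11:99024199 for Top2a, so the ends of these stretches lie inside the gene. Capitals mark matches on either strand to TTTGGCGC (an E2F site), TTTGAA (the CHR) and CCAAT. No base lay in 2 matches.
Mcm5 (chr8:75109349-75109508, plus strand): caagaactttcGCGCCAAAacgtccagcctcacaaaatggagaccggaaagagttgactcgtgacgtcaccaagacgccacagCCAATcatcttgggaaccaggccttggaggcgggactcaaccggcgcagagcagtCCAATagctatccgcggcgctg
Mcm6 (chr1:128359706-128359825, minus strand): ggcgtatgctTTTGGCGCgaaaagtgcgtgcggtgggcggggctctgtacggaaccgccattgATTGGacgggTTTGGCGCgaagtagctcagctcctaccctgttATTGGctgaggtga
Cdk1 (chr10:69352913-69353032, minus strand): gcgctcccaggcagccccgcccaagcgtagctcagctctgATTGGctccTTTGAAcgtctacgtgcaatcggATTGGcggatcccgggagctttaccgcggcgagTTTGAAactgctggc
Top2a (chr11:99024190-99024389, minus strand): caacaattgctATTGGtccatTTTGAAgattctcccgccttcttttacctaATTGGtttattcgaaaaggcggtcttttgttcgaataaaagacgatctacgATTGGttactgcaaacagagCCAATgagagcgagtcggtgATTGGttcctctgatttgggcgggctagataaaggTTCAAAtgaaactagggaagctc

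In the 250 bases before the start, TTTGGCGC was found in 2 of the 28 promoters of the 25 members in the table, once in Mcm5 (149 bases before the start) and at 110 and 47 bases before the start in Mcm6, and in 0.417% of all 32851 promoters. TTTGAA was found in 5 of the 28 and in 16% of all promoters, at 71 and 15 bases before the start in Cdk1 and at 179 and 23 in Top2a. It also stood in Mki67, in the replication gene Mcm2 and in Sox11, and in neither of the mitotic genes Bub1 and Birc5. CCAAT was found in 20 of the 28 and in 33.8% of all promoters. Among the replication and mitotic genes, Tyms and Birc5 held no match to any of these motifs. A match describes these letters and is not a measured binding site, and 8 members, Dpysl3 among them, are named only.

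The first question of the design was whether DMI changed these genes in either line. Differences within a line are DMI-labelled minus saline-labelled arrays, and their direction opposes the one the study gives for DMI. On the authors' normalized values the sign was opposite to that of the study's tables at 71 of 71 tabulated probes in HA and at 41 of 41 in LA. The titles of those tables put saline before DMI and do not state the order of subtraction: a saline minus DMI contrast would give the labels' direction at every one of these probes, while the study's text takes positive values as higher after DMI. The study also reports quantitative PCR of selected genes in RNA of single mice, in keeping with its array results. Its direction thus does not rest on the tables alone, and which direction is right was not settled here. The arrays are therefore named by their labels, and nothing is said on which way the drug acted.

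A call required a log2 difference over 0.5 in size and a limma p that stayed under 0.05 after Benjamini-Hochberg adjustment over the 25697 probes. In HA mice 0 of the 31 members were called and 0 passed the adjusted p alone, beside 0.113% of all probes called and 0.331% that passed the adjusted p. At an unadjusted p under 0.05, 2 members were higher and 3 lower on the DMI-labelled arrays, beside 3.83% of all probes higher and 4.72% lower. The median log2 difference of the 31 members was -0.012, with a range of -0.29 to 0.15, and that of all genes 0.000826. The 95% interval lay within 0.5 of zero for 30 of the 31, and for 18 of the 19 detected on at least 4 arrays, the exception being Stmn1. Differences near the floor are understated, so a narrow interval of an undetected member does not show that its transcript was unchanged. The groups failed to overlap for 0 of the 31, beside 5.8% of all probes.

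Sox4 had the smallest p of the members in HA, with 6.80, 6.65, 6.81 and 6.76 on the HA DMI arrays and 6.60, 6.55, 6.68 and 6.59 on the HA saline arrays. It was detected on 3 of the 4 HA DMI arrays and on 1 of the 4 HA saline arrays, and the second HA DMI array lay among the saline values. The difference was 0.15 (SE 0.048, 95% interval 0.05 to 0.25, adjusted p = 0.25).

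Nes had 6.61, 6.58, 6.56 and 6.79 on HA DMI arrays and 6.85, 6.77, 6.87 and 6.68 on HA saline arrays. It was detected on 1 of 4 HA DMI and 4 of 4 HA saline arrays, and the fourth HA DMI array lay among the saline values. Its difference was -0.16 (SE 0.06, 95% interval -0.28 to -0.03, adjusted p = 0.39), while its second probe, detected on 6 of 16 arrays, gave -0.00 (adjusted p = 1).

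Stmn1 had 8.48, 8.80, 8.21 and 8.66 on HA DMI arrays and 8.75, 8.99, 8.67 and 8.91 on HA saline arrays. The HA DMI arrays spread more widely and overlapped with the saline range, and the difference of -0.29 (SE 0.13, 95% interval -0.57 to -0.02) had an adjusted p of 0.51. Without the third HA DMI array, the lowest of its group, it was -0.188 (adjusted p = 0.79). The other 2 members at an unadjusted p under 0.05 were Mcm3, at 0.12 and detected on 2 of 16 arrays, and Ncam1, at -0.16. Dcx, the marker most used for newborn neurons, gave 0.04 (95% interval -0.10 to 0.18, adjusted p = 0.96), with 7.13, 7.17, 7.09 and 7.21 on HA DMI arrays and 7.07, 7.09, 7.20 and 7.09 on HA saline arrays. Its second detected probe gave -0.01.

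In LA mice 0 of the 31 members were called and 0 passed the adjusted p alone, beside 0.0311% of all probes called and 0.0662% that passed the adjusted p. At an unadjusted p under 0.05, 2 members were higher and 2 lower, beside 4.39% of all probes higher and 4.29% lower. The median of the members was 0.00429, with a range of -0.41 to 0.25, and that of all genes 0.00199. The 95% interval lay within 0.5 of zero for 30 of the 31, and for 18 of the 19 detected on at least 4 arrays, the exception being Dpysl3. As in HA, a narrow interval of an undetected member says little.

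Dpysl3, the collapsin response mediator protein of outgrowing axons also called CRMP4, had 7.12, 7.0, 6.47 and 6.84 on LA DMI arrays and 7.12, 7.44, 7.27 and 7.26 on LA saline arrays. The third LA DMI array was the lowest and the only 1 of the 16 without detection, and the first LA DMI array lay just under the first LA saline array, so that the groups did not overlap by a small margin. The arrays of 3.95% of all probes did not overlap in this comparison, and Dpysl3 was the only 1 of 31 members at its main probe. The difference of -0.41 (SE 0.11, 95% interval -0.64 to -0.19) did not pass (adjusted p = 0.19). After background correction it was -0.95 (adjusted p = 0.25).

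Mcm6 had 7.80, 7.84, 7.86 and 7.81 on LA DMI arrays and 7.57, 7.36, 7.53 and 7.83 on LA saline arrays. The fourth LA saline array lay inside the narrow DMI-labelled range, and the difference of 0.25 (SE 0.081, 95% interval 0.08 to 0.42) had an adjusted p of 0.34. Its 2 other probes detected on all 16 arrays gave 0.05 and 0.03 (adjusted p = 0.9 and 0.96). Pcna had 6.93, 6.88, 6.89 and 6.79 on LA DMI arrays and 6.73, 6.78, 6.60 and 6.80 on LA saline arrays, a difference of 0.15 (SE 0.062, adjusted p = 0.5). Birc5, at -0.11, was detected on 0 of 4 LA DMI and 2 of 4 LA saline arrays. Dcx gave 0.05 (95% interval -0.09 to 0.19, adjusted p = 0.9), with 7.30, 7.19, 7.11 and 7.27 on LA DMI arrays and 7.31, 7.29, 6.99 and 7.08 on LA saline arrays.

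By role, 8 of the 9 replication genes had a difference above zero in HA, with a median of 0.0811, and 7 of 9 in LA, with a median of 0.0618, none past the adjusted p in either line. Of the 8 newborn neuron genes 2 were above zero in HA (median -0.0599) and 4 in LA (median -0.0254). Of the 5 stem cell factors 1 was above zero in each line (medians -0.122 and -0.0289). The signals of the genes of a role are not independent of each other, and these counts are a description.

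**Figure D2:**
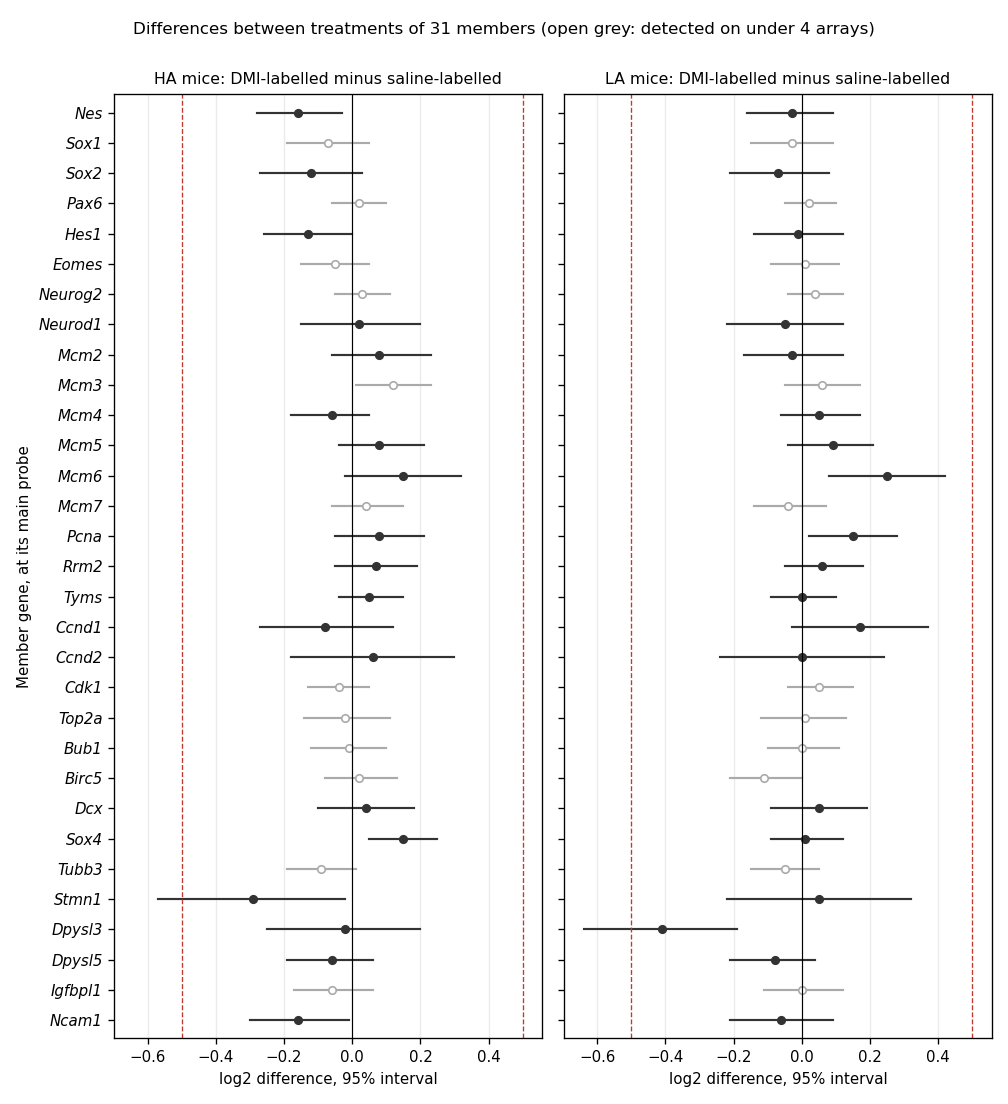
Log2 difference of the 31 members at their main probes between DMI-labelled and saline-labelled arrays (DMI minus saline) in HA mice (left) and LA mice (right), as points with 95% intervals from limma. Dashed lines mark a difference of 0.5, which only the intervals of Stmn1 in HA and Dpysl3 in LA reach, and open grey points are members detected on fewer than 4 arrays.

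Whether the lines responded differently to DMI was tested as the difference of their effects, HA minus LA. Of the 31 members 0 were called and 0 passed the adjusted p alone, beside 0.00389% of all probes for either rule. At an unadjusted p under 0.05, 1 member was above zero and 0 below, beside 3.1% of all probes above and 3.89% below. That member was Dpysl3, at 0.39 (SE 0.15, 95% interval 0.08 to 0.71, adjusted p = 0.59), from -0.02 in HA and -0.41 in LA. Sox4 (0.14, adjusted p = 0.73) and Stmn1 (-0.35, adjusted p = 0.76) came next. Stmn1 had 9.15, 8.86, 8.76 and 8.83 on LA DMI arrays and 8.93, 9.17, 8.70 and 8.58 on LA saline arrays, and Sox4 had 6.62, 6.56, 6.63 and 6.69 on LA DMI arrays and 6.56, 6.68, 6.56 and 6.65 on LA saline arrays. For both genes the LA groups overlapped.

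For the mean of the DMI effects over both lines, 0 of the 31 members were called, beside 0.0506% of all probes, and 0 passed the adjusted p alone, beside 0.416%. At an unadjusted p under 0.05, 4 members were higher and 4 lower, beside 4.8% of all probes higher and 5.41% lower. Mcm6 had the smallest p, at 0.20 (SE 0.057, adjusted p = 0.15). In HA it had 7.71, 7.74, 7.99 and 7.69 on DMI arrays and 7.70, 7.70, 7.57 and 7.56 on saline arrays, which overlapped narrowly at the lower end of the DMI arrays. Without the fourth LA saline array the mean effect was 0.247 and passed (adjusted p = 0.036), while the 2 other detected Mcm6 probes gave 0.03 and 0.04 with all arrays.

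The second question was whether the lines differed. Dpysl3 was the only member called, and it was called in all 3 comparisons of the lines. It had 7.77, 7.84, 7.76 and 7.93 on HA DMI arrays, 7.72, 7.85, 7.80 and 8.03 on HA saline arrays, 7.12, 7.0, 6.47 and 6.84 on LA DMI arrays and 7.12, 7.44, 7.27 and 7.26 on LA saline arrays. Every HA array lay above every LA array, as was so for 2.05% of all probes, and the LA DMI arrays had the widest spread (SD 0.28, against 0.078 in HA DMI, 0.13 in HA saline and 0.13 in LA saline).

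On the saline-labelled arrays Dpysl3 was higher in HA by 0.58 (SE 0.11, adjusted p = 0.0029), and 1 of 31 members was called, beside 1.19% of all probes, and 1 passed the adjusted p alone, beside 6.36%. On the DMI-labelled arrays it was higher in HA by 0.97 (SE 0.11, adjusted p = 2.6e-05), again 1 of 31 members called, beside 0.852% of all probes, and 1 past the adjusted p alone, beside 4.91%. Over both treatments it was higher in HA by 0.77 (SE 0.075, 95% interval 0.61 to 0.93, adjusted p = 2.1e-06), with 0.864% of all probes called. The arrays of the lines did not overlap for 2 of the 31 members on saline-labelled arrays (Tyms and Dpysl3, beside 10.4% of all probes) and for 4 on DMI-labelled arrays (Pax6, Neurog2, Cdk1 and Dpysl3, beside 10.3%). Of these, Tyms, Pax6 and Cdk1 were lower in HA, and Neurog2 and Dpysl3 higher. The main probes of Pax6 and Cdk1 were detected on 0 arrays and that of Neurog2 on 1, so those separations are of signals near background. After background correction the differences of Dpysl3 were larger, 0.977 (adjusted p = 0.029) on saline-labelled, 1.89 (adjusted p = 0.00038) on DMI-labelled arrays and 1.44 (adjusted p = 6.9e-05) over both. The array holds 1 probe for Dpysl3, so that no second probe could be set beside it.

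At an adjusted p under 0.05 with no limit on size, 3 of the 31 members passed over both treatments, beside 11.8% of all probes: Dpysl3, Ncam1 and Neurog2, each higher in HA. Ncam1 had 9.02, 9.15, 9.17 and 8.95 on HA DMI arrays, 9.24, 9.06, 9.44 and 9.18 on HA saline arrays, 9.01, 8.96, 8.91 and 8.95 on LA DMI arrays and 8.94, 8.97, 9.03 and 9.12 on LA saline arrays. The third HA saline array was the highest, and the lines overlapped. The mean difference was 0.16 (SE 0.049, adjusted p = 0.035).

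A second Ncam1 probe had 7.32, 7.53, 7.41 and 7.42 on HA DMI arrays, 7.56, 7.55, 7.42 and 7.49 on HA saline arrays, 7.14, 7.21, 7.21 and 7.26 on LA DMI arrays and 7.36, 7.31, 7.25 and 7.16 on LA saline arrays. Within each treatment its HA arrays all lay above its LA arrays. The difference was 0.23 over both treatments (SE 0.038, adjusted p = 0.00063), 0.24 on saline-labelled (adjusted p = 0.012) and 0.22 on DMI-labelled arrays (adjusted p = 0.026). On DMI-labelled arrays the difference no longer passed the adjusted p with median scaling (0.325, adjusted p = 0.063) or with the intensity trend (0.216, adjusted p = 0.071). Nor did it pass without HA DMI replicate 2 or 4 or LA DMI replicate 1 or 3 (0.178 to 0.218, adjusted p = 0.056 to 0.089). On saline-labelled arrays it no longer passed without HA saline replicate 1 (0.214, adjusted p = 0.051). Both probes of Ncam1 thus ran the same way, under the size limit. With the main probe the saline-labelled arrays gave 0.21 (adjusted p = 0.08), which passed without the second HA saline array (0.269, adjusted p = 0.032). Over both treatments the main probe no longer passed with background correction (0.191, adjusted p = 0.057) or with an intensity trend in the variance (0.165, adjusted p = 0.091).

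Neurog2, at 6.60, 6.64, 6.63 and 6.60 on HA DMI arrays, 6.58, 6.52, 6.66 and 6.59 on HA saline arrays, 6.52, 6.53, 6.57 and 6.51 on LA DMI arrays and 6.53, 6.51, 6.49 and 6.45 on LA saline arrays, was not well above background in either line, with detection on 1 of the 4 HA saline arrays only. Its difference of 0.09 had an adjusted p of 0.043 and no fold is given. The difference no longer passed with median scaling (0.0614, adjusted p = 0.17), the variance trend (0.0892, adjusted p = 0.057), the replicate block (0.0892, adjusted p = 0.063) or array weights (0.0872, adjusted p = 0.05). Nor did it pass in 13 of the 16 fits without 1 array (adjusted p up to 0.092). The exceptions were those without HA saline replicate 2, LA DMI replicate 3 or LA saline replicate 1. Likewise a Tyms probe other than its main one, detected on 1 of 16 arrays, gave -0.12 (adjusted p = 0.017). It had 6.44, 6.48, 6.42 and 6.52 on HA DMI arrays, 6.55, 6.55, 6.49 and 6.49 on HA saline arrays, 6.58, 6.55, 6.69 and 6.54 on LA DMI arrays and 6.64, 6.63, 6.57 and 6.70 on LA saline arrays. The main Tyms probe gave -0.06 (adjusted p = 0.26).

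The probes of Sox2 disagreed in size. Its main probe had 7.61, 7.79, 7.69 and 7.63 on HA DMI arrays, 7.69, 7.67, 8.02 and 7.83 on HA saline arrays, 7.68, 7.59, 7.69 and 7.69 on LA DMI arrays and 7.80, 7.61, 7.81 and 7.70 on LA saline arrays. The 4 groups overlapped there, and the difference between the lines was 0.04 (95% interval -0.06 to 0.15, adjusted p = 0.69).

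The second Sox2 probe had 6.94, 6.74, 7.05 and 6.74 on HA DMI arrays, 7.05, 6.97, 6.93 and 7.03 on HA saline arrays, 6.70, 6.50, 6.46 and 6.49 on LA DMI arrays and 6.45, 6.55, 6.60 and 6.60 on LA saline arrays. It was detected on every HA array, on 1 of 4 LA DMI arrays and on 0 of 4 LA saline arrays. The HA arrays all lay above the LA arrays, with 0.39 over both treatments (SE 0.049, 95% interval 0.29 to 0.49, adjusted p = 3.2e-05), 0.45 on saline-labelled (adjusted p = 0.00064) and 0.33 on DMI-labelled arrays (adjusted p = 0.0077). As LA saline lay under background, its measured means of 6.99 in HA saline and 6.55 in LA saline give a bound of at least 1.25-fold higher in HA saline, taken from the mean of the lowest detected signals. The 95% intervals of the 2 probes over both treatments do not overlap, and that difference was not tested further.

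Ccnd1 also had probes that disagreed. The third of its probes had 7.14, 7.34, 7.32 and 7.27 on HA DMI arrays, 7.14, 7.11, 6.97 and 6.99 on HA saline arrays, 7.40, 7.35, 7.46 and 7.39 on LA DMI arrays and 7.85, 7.24, 7.40 and 7.43 on LA saline arrays. The HA saline arrays were lowest and the first LA saline array highest. It was lower in HA by 0.28 over both treatments (difference -0.28, SE 0.065, adjusted p = 0.0072) and by 0.43 on saline-labelled arrays (difference -0.43, adjusted p = 0.008), with -0.13 on DMI-labelled arrays (adjusted p = 0.54). The main and the second probe gave -0.04 and 0.04 (adjusted p = 0.81 and 0.84). When arrays were scaled to a common median instead of quantile normalized, the third probe no longer passed in either comparison (-0.168, adjusted p = 0.13, and -0.306, adjusted p = 0.098). With this scaling the median difference of all detected probes between the lines was 0.11 on saline-labelled arrays and 0.098 over both treatments, beside 0.0025 and 0.0037 with quantile normalization.

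Ccnd2 had a difference of -0.24 between HA and LA (95% interval -0.41 to -0.07, adjusted p = 0.06), which passed when replicate 1 or 2 of HA DMI, replicate 4 of HA saline, replicate 1 of LA DMI or replicate 4 of LA saline was left out (-0.29 to -0.266, adjusted p = 0.015 to 0.048). Its values were 8.27, 8.26, 7.78 and 8.05 on HA DMI arrays, 7.94, 8.05, 7.95 and 8.18 on HA saline arrays, 8.01, 8.38, 8.47 and 8.34 on LA DMI arrays and 8.4, 8.44, 8.30 and 8.06 on LA saline arrays, and the lines overlapped. Dcx had -0.06 (95% interval -0.16 to 0.04, adjusted p = 0.48). Stmn1 gave -0.19 (adjusted p = 0.22). The median of the 31 members was -0.023, with 12 above zero, and that of all genes -0.00196.

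**Figure D3:**
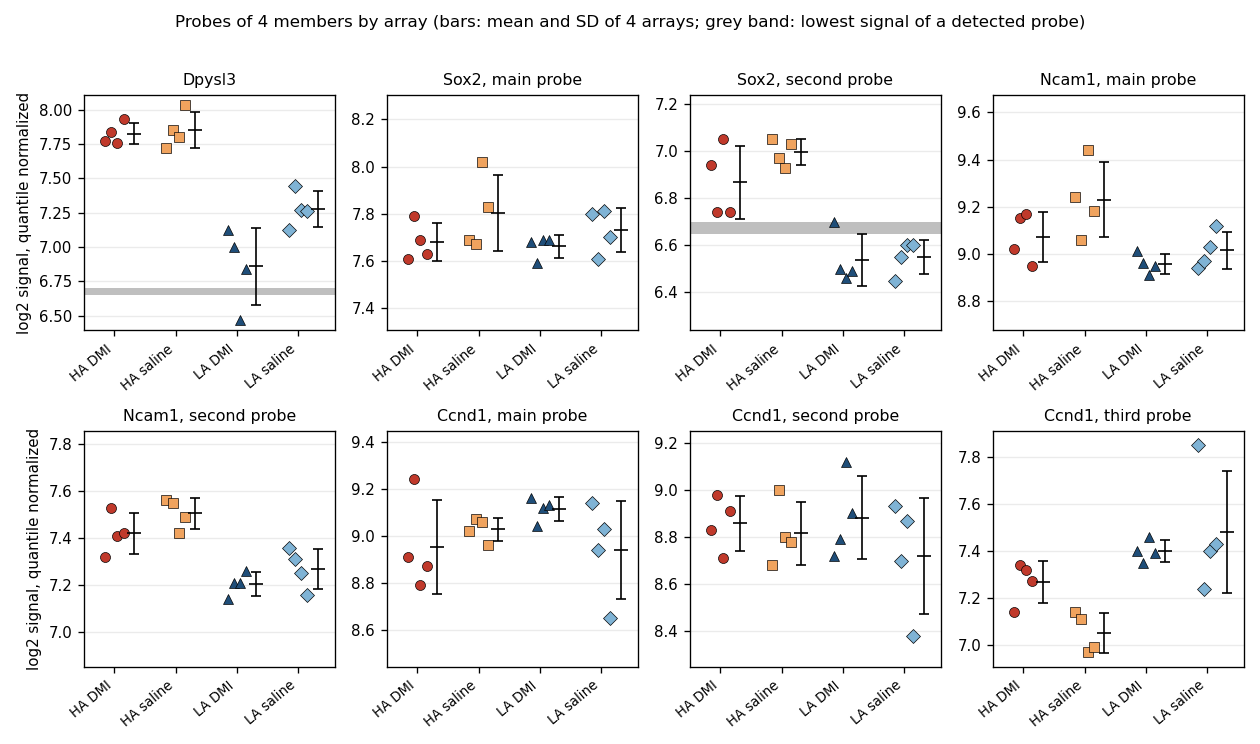
Log2 signal of 8 probes of Dpysl3, Sox2, Ncam1 and Ccnd1 on each array, with HA DMI, HA saline, LA DMI and LA saline from left to right, and the mean and SD of 4 arrays. The axes span at least 1 log2 unit and differ in position, and the grey band is the lowest signal of a detected probe. All HA arrays of Dpysl3 and of the second Sox2 probe lie above their LA arrays, while the main Sox2 probe overlaps between the lines.

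Further genes of the same pathway were taken from 5 lists by known role. Under DMI 1 of the 30 measured niche signals and receptors passed the adjusted p in HA, beside 0.331% of all probes, and 0 passed in LA, beside 0.0662%. That gene was Ctnnb1, the beta-catenin of Wnt signalling, with 11.27, 11.10, 11.21 and 10.98 on HA DMI arrays and 11.57, 11.45, 11.53 and 11.48 on HA saline arrays. It was lower by 0.37 (difference -0.37, SE 0.075, adjusted p = 0.039), with no overlap, while its other probe gave -0.13 (adjusted p = 0.77). The main Ctnnb1 probe no longer passed with median scaling (-0.314, adjusted p = 1) or background correction (-0.384, adjusted p = 0.098). Nor did it pass without any 1 of the 8 HA arrays or of LA DMI replicates 2 and 3 (-0.413 to -0.317). None of the 21 other radial glia and stem cell genes, 37 other cell cycle genes, 30 other immature neuron genes and 14 cell cycle inhibitors passed in either line (0 in each).

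Between the lines 2 of the 21 radial glia and stem cell genes were higher and 1 was lower in HA over both treatments, where 5.87% of all probes were higher and 5.92% lower. Of the probes detected on at least 4 arrays, 20.3% passed in either direction. Sox9, the glial and stem cell factor, had 7.64, 7.60, 7.68 and 7.70 on HA DMI arrays, 7.91, 7.73, 7.80 and 7.50 on HA saline arrays, 7.61, 7.23, 7.25 and 7.35 on LA DMI arrays and 7.03, 7.12, 7.19 and 6.98 on LA saline arrays. The HA arrays lay above all LA arrays but the first LA DMI array, and the difference was 0.48 (SE 0.06, adjusted p = 3.4e-05). Vim, the filament vimentin of radial glia, was higher by 0.28 (adjusted p = 0.00066). Slc1a3, the glutamate transporter of astrocytes and radial glia, had -0.19 (adjusted p = 0.0039), which turned to 0.0266 (adjusted p = 0.87) with median scaling.

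Of the 30 other immature neuron genes 3 were higher and 5 lower in HA, beside the same 5.87% and 5.92% of all probes. However, 27 of the 30 were detected on at least 4 arrays, and of the probes so detected 20.3% passed in either direction. Dclk1, a doublecortin-like kinase, had -0.47 (adjusted p = 0.00014) and Dpysl4, a relative of Dpysl3, -0.38 (adjusted p = 0.00058). Neither passed with median scaling (-0.221, adjusted p = 0.14, and -0.142, adjusted p = 0.33). The probes of Dpysl4 detected on 9 and 10 arrays gave -0.13 (adjusted p = 0.044) and 0.06 (adjusted p = 0.66). Map1b, a microtubule-associated protein of growing axons, had -0.18 (adjusted p = 0.0089), its 3 other probes gave 0.07, -0.08 and -0.16, and with median scaling it turned to 0.0593 (adjusted p = 0.64). Calb2, the calretinin of early postmitotic granule neurons, was higher by 0.89 (SE 0.19, adjusted p = 0.0034), and its second probe by 0.59 (adjusted p = 0.00062). Calb2 also marks thalamic and habenular neurons. Its highest values, 10.66 to 11.07, were those of the HA saline arrays, on which the list of thalamus and habenula genes also stood highest. Calb2 is itself in that list, so gene and list are not separate observations.

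Of the 14 cell cycle inhibitors 1 was higher and 2 were lower in HA, again beside 5.87% of all probes higher and 5.92% lower. Rb1, the retinoblastoma protein that binds E2F factors, had 8.57, 8.68, 8.82 and 8.58 on HA DMI arrays, 8.58, 8.51, 8.52 and 8.66 on HA saline arrays, 9.13, 9.05, 9.07 and 9.16 on LA DMI arrays and 9.23, 8.90, 9.01 and 9.39 on LA saline arrays. Every HA array lay below every LA array, with -0.50 (SE 0.059, adjusted p = 1.8e-05) and -0.31 (adjusted p = 0.0017) at its other probe. Cdkn1a, the inhibitor p21, had -0.32 (adjusted p = 0.00013) at its main probe, while its 2 other probes gave 0.04 and 0.03. Cdkn1c, the inhibitor p57 of quiescent stem cells, was higher by 0.36 (adjusted p = 0.0023). Of the 37 other cell cycle genes 1 was higher and 0 lower, beside the same shares of all probes. It was the replication factor subunit Rfc4 (0.17, adjusted p = 0.039), with -0.12 (adjusted p = 0.095) at another probe. The main Rfc4 probe no longer passed with median scaling (0.201, adjusted p = 0.052) or in 12 of the 16 fits without 1 array (adjusted p up to 0.088). The exceptions were those that dropped replicate 2 or 3 of HA DMI, replicate 4 of HA saline or replicate 2 of LA saline. Of the 30 niche genes 2 were higher and 2 lower, beside the same shares, among them the ligand Wnt7b (-0.34, adjusted p = 0.00072, other probe -0.06, -0.127 and adjusted p = 0.37 with median scaling) and the serotonin receptor Htr1a (0.36, adjusted p = 0.0052).

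Genes of newborn neurons were also set against each other across arrays, as deviations from the group means, for 2 pairs of Dcx, those with Stmn1 and Dpysl5, each detected on all 16 arrays. Ncam1, also detected on all 16, was not in the list of partners and was added after the data were seen. Dcx and Stmn1 had a Pearson r of 0.6 (permutation p = 0.046 within groups, two-sided, adjusted p = 0.092 over 2 pairs) and a Spearman rho of 0.6 (permutation p = 0.043, adjusted p = 0.085), and r was 0.63 without the 2 arrays farthest from the median of Dcx. Dcx and Dpysl5 had r = 0.48 (permutation p = 0.21, adjusted p = 0.21) and rho = 0.31 (permutation p = 0.37, adjusted p = 0.37), with r = 0.22 without those 2 arrays. Dcx and Ncam1 had r = -0.04 (permutation p = 0.86) and rho = -0.21 (permutation p = 0.48), with r = 0.09 without those 2 arrays. Over the 3 pairs the adjusted permutation p of r was 0.14 for Stmn1, 0.31 for Dpysl5 and 0.86 for Ncam1, and no pair passed over 2 or over 3 pairs.

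Markers of neighbouring tissue differed between the groups. Several of them, such as Gbx2, Slc17a6, Ttr and Otx2, are genes that the study itself reports as changed under DMI. Differences of these lists are therefore not independent of these data. Levels of a list are its mean log2 deviation from the 16-array mean over genes detected on at least 4 arrays. The thalamus and habenula list, with 8 of 8 genes detected, spanned -0.33 to 0.01 on HA DMI arrays, 0.74 to 0.81 on HA saline arrays, -0.69 to 0.04 on LA DMI arrays and -0.77 to 0.39 on LA saline arrays. The choroid plexus genes, 6 of 9 measured and detected, spanned 0.20 to 0.35 on HA DMI arrays, 0.43 to 0.55 on HA saline arrays, -1.10 to -0.58 on LA DMI arrays and -0.43 to 0.29 on LA saline arrays. All 6 were higher in HA over both treatments at an adjusted p under 0.05, beside 5.87% of all probes. The leptomeningeal genes, 4 of 8 detected, spanned -0.12 to 0.04 on HA DMI arrays, 0.50 to 0.57 on HA saline arrays, -0.71 to -0.27 on LA DMI arrays and -0.35 to 0.32 on LA saline arrays. The striatal genes, 6 of 9 measured, reached 0.58 to 1.34 on 3 of the 4 LA saline arrays and at most 0.14 on all others. None of the defining markers Ttr, Tcf7l2 and Drd1 was at background, each being detected on all 16 arrays.

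On the same scale the mean of the 6 detected newborn neuron members spanned -0.02 to 0.09 on HA DMI and 0.05 to 0.13 on HA saline arrays. It spanned -0.20 to -0.00 on LA DMI and -0.11 to 0.10 on LA saline arrays. The mean of the 7 detected replication members spanned -0.02 to 0.08 on HA DMI and -0.06 to -0.01 on HA saline arrays. It spanned 0.00 to 0.09 on LA DMI and -0.07 to 0.01 on LA saline arrays. By group mean LA DMI was lowest for Dpysl3 and for the choroid plexus list (-0.79). It was also lowest for the thalamus and habenula (-0.41), leptomeningeal (-0.39) and striatal (-0.26) lists. In HA the choroid plexus list had means of 0.28 under DMI and 0.49 under saline, and Dpysl3 of 7.83 and 7.85. The 5 detected oligodendrocyte precursor genes were highest in HA saline (0.04 to 0.13). Of the 7 measured genes of this list 4 were above zero in HA against LA over both treatments (median 0.0277) and 1 passed the adjusted p, Olig1 (0.26, adjusted p = 0.0025), which had 0.52 on saline-labelled and -0.00 on DMI-labelled arrays, while Gpr17 was lower in HA on DMI-labelled arrays (-0.21, adjusted p = 0.011). The endothelium list spanned -0.21 to -0.10 on HA DMI, -0.15 to -0.04 on HA saline, 0.04 to 0.14 on LA DMI and 0.03 to 0.24 on LA saline arrays. The granule and pyramidal cell markers had group means of -0.08 in HA DMI, -0.14 in HA saline, 0.15 in LA DMI and 0.07 in LA saline, with overlap between the lines. The part of these tissues and cells in the differences of Dpysl3, Sox2, Sox9, Ncam1 and Calb2 was not tested.

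**Figure D4:**
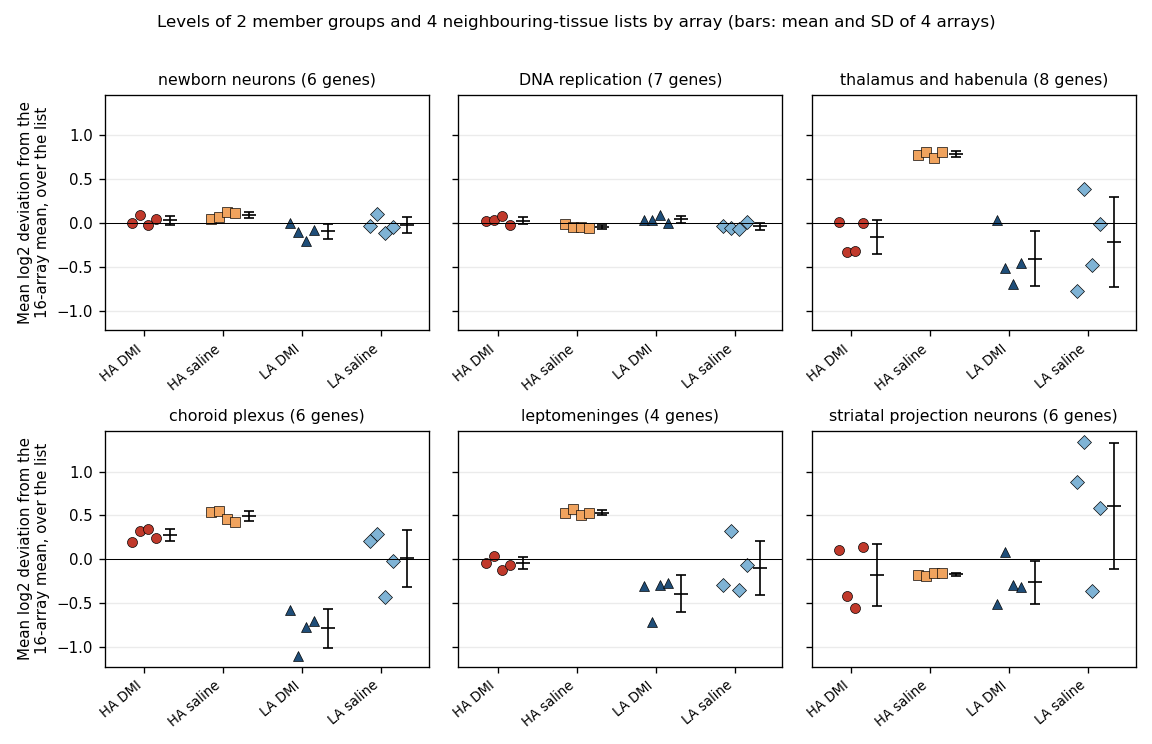
Mean log2 deviation from the 16-array mean on each array for the detected genes of 2 member roles and 4 neighbouring-tissue lists, with the groups from HA DMI on the left to LA saline on the right and the mean and SD of 4 arrays. The means over the newborn neuron and over the replication members stay within -0.20 to 0.13, while the thalamus and habenula list stands at 0.74 to 0.81 on the 4 HA saline arrays. Single members range more widely, such as Dpysl3 with log2 signals of 6.47 to 8.03.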

How the data were processed

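Deposited intensity values are linear reader signals, 1 per probe and array, not yet normalized. The deposited p-value columns are, per the file headers, detection p values against the negative controls of each array. A deposited log2 table, which the authors' methods describe as quantile normalized (median 6.69), served as an alternative.

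Signals were transformed to log2 and quantile normalized over 16 arrays (median 6.70, at most 0.046 from the authors' values) in R 4.3.3 with limma 3.58.1, using lmFit and eBayes with 1 mean per group. Of 25697 probes 23978 had 1 symbol in the platform annotation and 1719 none. Adjusted p are Benjamini-Hochberg over all probes. The number of arrays limits the precision. The fit was tested on simulated data. Alternatives covered normalization, background, detection filter, array weights, variance trend, replicate block and leaving out each array. Values in every array are given for members that passed an adjusted p of 0.05 and for the 3 with the smallest p in 4 comparisons, and up to 4 genes of each wider list are named. Columns of fold changes in the study's tables were used for their sign only. The members and lists were chosen with earlier results of these data known. Figures used Python 3.11.15 and matplotlib 3.10.9.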

Additional observations from a re-analysis of the deposited data

Results flagged for a closer look

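For 2 members a value stood apart from the other arrays of their group by the gap to the nearest one, among 76 groups of 4 arrays checked, and chance alone gives about 1 such group in 20. The main Sox2 probe was at 7.59 on the second LA DMI array, against 7.68 to 7.69 on the other three. Dcx was at 7.20 on the third HA saline array, against 7.07 to 7.09 on the other three. Neither gene was called in any comparison at these probes, and no member passed the test of a difference between the lines in its DMI effect.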

How the results depend on the processing

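The counts of members called were 0 for the 4 DMI comparisons and 1 for the 3 line comparisons under every alternative run and without any 1 array, except that 3 members passed over both treatments with no limit on size. Of 895 named values recomputed, 827 kept direction and side of the adjusted p threshold, 66 no longer passed it and 2 reversed. The reversed values were Slc1a3 (0.0266) and Map1b (0.0593), both between the lines with median scaling. The cause was not tested. Most values were named because they passed, so gains of other values lie outside these counts. Without 1 array Ccnd2, Mcm6 and Ncam1 each passed in a comparison where they otherwise had not, as given above. Dpysl3 was called without any 1 array (0.518 to 0.631 on saline-labelled, 0.838 to 1.07 on DMI-labelled arrays, 0.706 to 0.823 over both).

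Without 1 array r ran from 0.09 to 0.61 for Dcx with Dpysl5, with 0.09 without the third LA saline array, and from 0.5 to 0.74 for Dcx with Stmn1, which passed without the third HA saline array (0.74, adjusted p = 0.023). With the second Dcx probe, an alternative chosen after seeing the data, Stmn1 passed too (r = 0.61, adjusted permutation p = 0.04) and Dpysl5 had 0.12. For Dcx with Ncam1, also added after seeing the data, r was 0.03 with the second Dcx probe and ran from -0.36 to 0.08 without 1 array. Adjusted over 3 pairs, Dcx with Stmn1 passed without the third HA saline array (adjusted p = 0.034) and did not with the second Dcx probe (adjusted p = 0.059).

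Same-numbered arrays were not shown to be paired: their deviations correlated at -0.39 to 0.24, and 4 of 16 arrays correlated best with their own number. With the replicate number as a block 0 members were called under DMI and 1 in each line comparison, and Neurog2 alone no longer passed the adjusted p (0.0892, adjusted p = 0.063). Chip as a block was not run, since no chip is named in the files.

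Over all probes, the calls without 1 array ran from 8 to 47 in HA and from 0 to 31 in LA under DMI. Under DMI in HA 4 probes were called with median scaling and 60 with a variance trend, against 29, and in LA 3 with the replicate block, against 8. With background correction 820 probes were called between the lines on saline-labelled arrays, against 305, and 593 on DMI-labelled arrays, against 219. Over both treatments it gave 713 and median scaling 500, against 222. The main Ncam1 probe no longer passed over both treatments when replicate 2 or 3 of HA DMI, replicate 1 or 3 of HA saline, replicate 2, 3 or 4 of LA DMI, or replicate 1, 2 or 3 of LA saline was left out, with an adjusted p of up to 0.072. Of the 31 members 12 were detected on fewer than 4 arrays, where the signal lay near or under the floor.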
